A study of Mus musculus with 8 samples.

Results

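The enzymes that carry glucose through glycolysis, into the pentose phosphate pathway and as pyruvate into mitochondria were followed in C2C12 myotubes. C2C12 is a mouse myoblast line whose cells fuse into multinucleate myotubes in culture. The set was a written list of 38 genes. A gene was measured where the platform annotation gave it a probe set of its own, and where a gene had several, the brightest on average over the 8 arrays stood for it. That held for 32 of the 38 genes, out of 22180 genes with such a probe set in the whole table, and all 32 were among the 13308 genes bright enough to test. By step, 11 belonged to upper glycolysis with its regulatory kinases, 10 to lower glycolysis and lactate formation, 5 to the pentose phosphate pathway and 6 to pyruvate entry.

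The myoblasts had been transduced with a retrovirus carrying an shRNA against mouse Baf60c (SiBc; the gene is now named Smarcd3 and encodes a subunit of BAF, a complex that remodels chromatin) or a scrambled shRNA (Scrb), then differentiated. All myotubes were of this 1 line and all carried a retrovirus. The 4 groups were knockdown myotubes at 10 mM glucose (SiBc HG), knockdown myotubes at 1 mM glucose (SiBc LG), control myotubes at 10 mM glucose (Scrb HG) and control myotubes at 1 mM glucose (Scrb LG), each kept at that concentration for 12 h. Each group had 2 arrays, which the design calls independent biological replicates, and replicate arrays correlated across genes at 0.987 to 0.990, against 0.939 to 0.984 between groups. All values below are log2 expression, in the order replicate 1 and replicate 2, and a gene was called at a limma adjusted p under 0.05 over all tested genes.

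Glycolysis splits glucose into pyruvate, with control concentrated at hexokinase, phosphofructokinase and pyruvate kinase. Skeletal muscle expresses its own isoforms of several steps, among them the phosphofructokinase subunit Pfkm, the phosphoglycerate mutase Pgam2 and the beta-enolase Eno3, which come up as myoblasts differentiate, beside isoforms found in most tissues. The pentose phosphate pathway draws off glucose 6-phosphate to make NADPH and ribose 5-phosphate. Pyruvate enters mitochondria to be oxidised by the pyruvate dehydrogenase complex, which the Pdk kinases switch off by phosphorylation.

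The targeted gene could be read only through a probe set that the annotation assigns to both Chpf2 and Smarcd3. Its log2 values were 3.90 and 4.49 in knockdown myotubes at 10 mM and 3.01 and 2.77 in knockdown myotubes at 1 mM, against 6.27 and 6.09 in control myotubes at 10 mM and 5.62 and 5.40 in control myotubes at 1 mM. All 4 knockdown arrays lay below all 4 control arrays. The knockdown difference was -1.98 ± 0.22 at 10 mM (SE, adjusted p = 0.0171) and -2.62 ± 0.22 at 1 mM (adjusted p = 0.00313). How much of the signal belongs to Chpf2 cannot be told apart on this probe set.

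Markers of differentiation and of other cell states differed between the groups as well. The mean over 10 myotube markers, such as Myog, Ckm and Myh3, was 8.72 to 8.76 in knockdown myotubes at 10 mM, 7.73 to 7.84 in knockdown myotubes at 1 mM, 9.52 to 9.68 in control myotubes at 10 mM and 8.84 to 8.93 in control myotubes at 1 mM. Cav3 was the dimmest of them, with group means of 2.90, 2.38, 4.22 and 3.01 in that order. Of these markers, 9 were called higher at 10 mM in knockdown myotubes and 6 in control myotubes, while 3 were called lower with knockdown at 10 mM and 6 at 1 mM. Among all tested genes, 14.5% were called higher with glucose in knockdown myotubes and 13.2% in control myotubes. The shares called lower with glucose were 10.6% and 12.1% in that order. With knockdown, 1.12% of all tested genes were called either way at 10 mM and 1.25% lower at 1 mM. The mean over 7 fibroblast and smooth muscle markers was 8.10 to 8.11, 6.69 to 6.80, 7.70 to 7.96 and 6.50 to 6.53 in the same order of groups, and that of 4 measured proliferation markers was 6.98 to 7.30, 4.27 to 4.78, 7.32 to 7.52 and 4.55 to 4.67. With glucose, 6 of the 7 and 4 of the 4 were called higher in both kinds of myotubes. The mean over 7 markers of undifferentiated myoblasts spanned 6.03 to 6.34 over all arrays, with 3 called higher and 2 lower with glucose in both. Macrophage and adipocyte markers were dim: 3 of 5 and 3 of 4 had no group mean of 3 or more. In such bulk samples, fewer cells of a type and less RNA per cell cannot be told apart, and the part these markers play in the enzyme results was not tested.

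The start regions of 3 members whose isoforms the results below turn on are shown first, because the muscle isoforms Pgam2 and Eno3 were both called higher with glucose in both kinds of myotubes, while Pgam1, the mutase of most tissues, was called in control myotubes alone. Each window runs from 250 bases before to 50 bases after the RefSeq transcript start, read 5′ to 3′ on the gene's strand (build GRCm38.p6), with the E-box CANNTG, the core recognised by myogenic basic helix-loop-helix factors, in capitals. The Pgam2 window lies at chr11:5803747-5804046 on the minus strand, the Eno3 window at chr11:70656926-70657225 on the plus strand and the Pgam1 window at chr19:41911621-41911920 on the plus strand.
Pgam2: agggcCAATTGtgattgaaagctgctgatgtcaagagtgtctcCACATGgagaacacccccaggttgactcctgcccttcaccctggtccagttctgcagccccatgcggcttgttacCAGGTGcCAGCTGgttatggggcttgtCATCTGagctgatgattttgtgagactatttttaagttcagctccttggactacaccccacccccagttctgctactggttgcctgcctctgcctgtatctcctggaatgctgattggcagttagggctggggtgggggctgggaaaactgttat
Eno3: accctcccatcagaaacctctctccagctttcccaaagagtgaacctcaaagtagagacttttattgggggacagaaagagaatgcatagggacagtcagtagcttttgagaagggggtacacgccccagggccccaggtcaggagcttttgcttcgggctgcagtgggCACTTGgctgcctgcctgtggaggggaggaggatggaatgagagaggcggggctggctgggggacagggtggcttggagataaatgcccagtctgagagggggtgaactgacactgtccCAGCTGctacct
Pgam1: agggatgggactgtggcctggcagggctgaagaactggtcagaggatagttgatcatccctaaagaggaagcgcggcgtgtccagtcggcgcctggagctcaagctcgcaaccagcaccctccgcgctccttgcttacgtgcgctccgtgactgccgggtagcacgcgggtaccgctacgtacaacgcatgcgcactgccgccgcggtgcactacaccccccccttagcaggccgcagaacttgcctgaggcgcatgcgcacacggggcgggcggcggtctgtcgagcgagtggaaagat
The Pgam2 window held 5 matches to CANNTG, the Eno3 window 2 and the Pgam1 window 0. The window of Eno2, the neuronal enolase, held 1, and the 3 windows of Eno1, which had no probe set of its own, held 2, 0 and 0. For phosphofructokinase, the 4 windows of the muscle subunit Pfkm held 3, 0, 1 and 1. The Pfkl window held 3 and the Pfkp window 0. The printed windows were chosen by their calls, and a link between matches and calls was not tested. CANNTG reads the same on both strands, and 72.3% of 32851 windows of 27025 genes hold at least 1, so a match is common. Over the 45 windows of the 32 measured members, 30 held CANNTG (66.7%). ACGTG, searched on both strands, is the core of the HIF-1 response element and lies within CACGTG, the E-box form bound by Myc. It was present in 18 of the members' windows (40%), against 19.6% of all windows. By step, ACGTG was in 10 of 19 windows of upper glycolysis (52.6%), 5 of 12 of lower glycolysis (41.7%), 3 of 8 of pyruvate entry (37.5%) and 0 of 6 of the pentose phosphate pathway. CACGTG itself was in 5 of the 45 windows (11.1%), against 7.15% of all windows. TGACNNNGC, the antioxidant response core bound by Nrf2 and searched on both strands, was in 3 of the 45 (6.67%), against 12.4% of all windows. The only pentose phosphate window among those 3 belonged to an alternative start of Pgd. These counts leave out G6pdx and Tkt, which had no probe set of their own. The G6pdx window held 1 ACGTG and 1 TGACNNNGC, and the Tkt window neither. These matches describe the letters of the windows only.

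High glucose raised part of the glycolytic set and lowered some pentose phosphate genes. In knockdown myotubes, 8 of 32 members were called higher at 10 mM than at 1 mM and 5 lower, where 14.5% of all tested genes were called higher, 10.6% lower and 25.1% either way. In control myotubes, 7 of 32 were called higher and 5 lower, where 13.2% of all tested genes were called higher, 12.1% lower and 25.3% either way. The members' median log2 change was 0.15 in knockdown myotubes, beside 0.027 over all tested genes, and 0.25 in control myotubes, beside -0.0065. Hk1, Pfkm, Pfkp, Pgam2 and Eno3 were called higher in both kinds of myotubes, and Hk2, Adpgk and Pgd were called lower in both. Upper glycolysis held calls in both directions. In lower glycolysis 0 of 10 members were called lower, and in the pentose phosphate pathway 0 of 5 were called higher. Sets this small would hold few or no such calls at the shares of all tested genes given above. Several of these calls were lost when certain single arrays were left out. In knockdown myotubes, leaving out 1 of that kind's arrays ended the call of Hk1 (adjusted p up to 0.0979), Rpia (up to 0.0643) and Pdk1 (up to 0.0673) for replicate 2 at 1 mM and for replicate 1 at 10 mM, and that of Pdk1 also for replicate 2 at 10 mM. In control myotubes, the calls of Pfkm (up to 0.101) and Tpi1 (up to 0.0828) were lost without any 1 of the 4 control arrays, that of Eno3 (up to 0.0759) without either array at 1 mM or replicate 1 at 10 mM, and that of Taldo1 (0.0648) without replicate 1 at 1 mM.

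**Figure D1:**
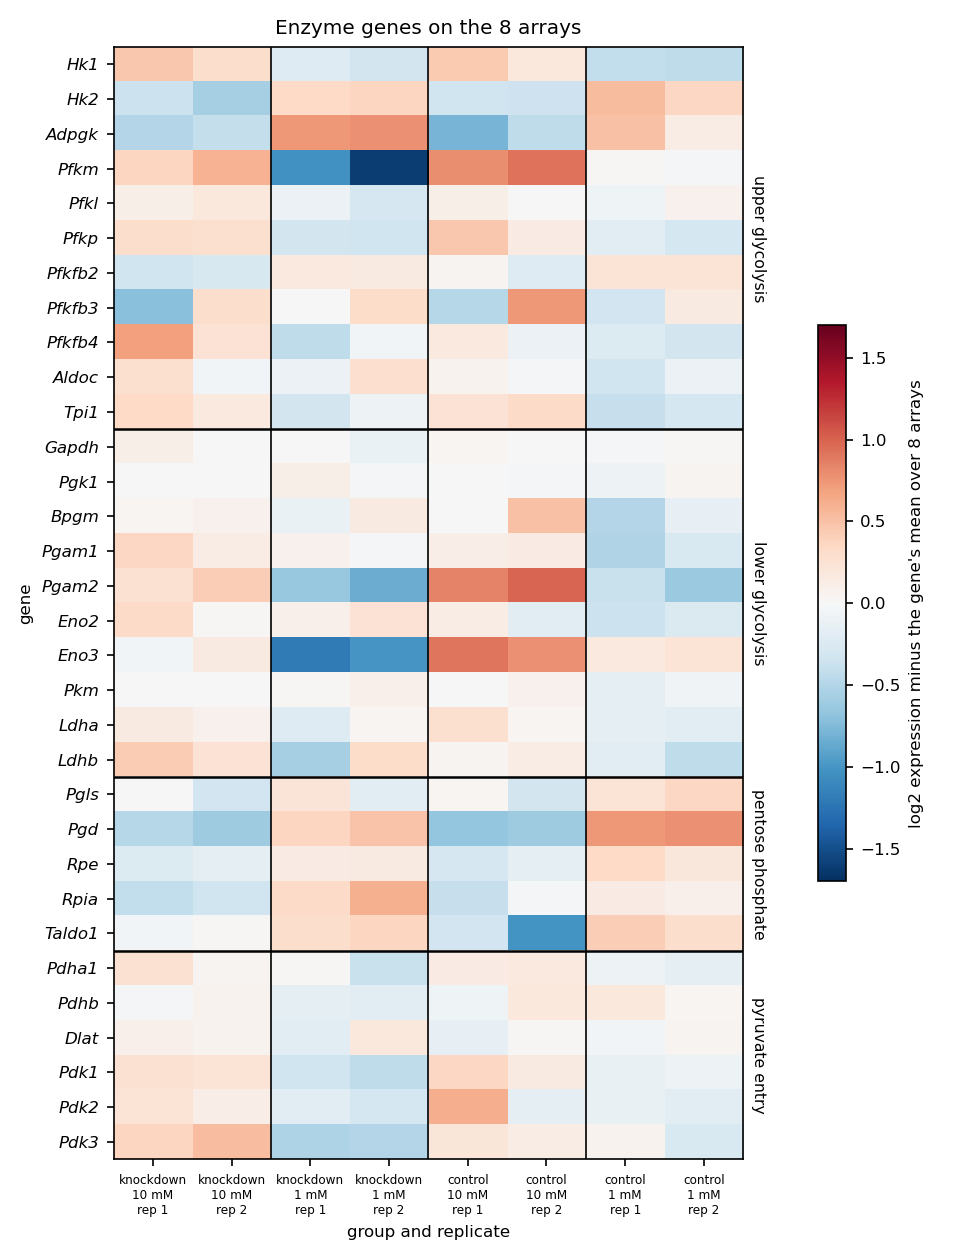
Log2 expression of the 32 measured enzyme genes (rows, grouped by step) on the 8 arrays (columns, by group and replicate), each shown as the difference from that gene's own mean over the 8 arrays. Pfkm and Eno3 are bluest in the knockdown arrays at 1 mM, the pentose phosphate genes are mostly redder at 1 mM than at 10 mM, and Gapdh, Pgk1 and Pkm are near white throughout.

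At the first step of glycolysis, the phosphorylation of glucose, the isoforms went opposite ways. Hk1, the hexokinase of most tissues, had log2 values of 6.32 and 6.16 in knockdown myotubes at 10 mM, against 5.64 and 5.54 in knockdown myotubes at 1 mM. In control myotubes Hk1 had 6.30 and 6.03 at 10 mM, against 5.43 and 5.42 at 1 mM. Every array at 10 mM lay above every array at 1 mM, by a change of 0.65 ± 0.14 in knockdown myotubes (SE, adjusted p = 0.0152) and 0.74 ± 0.14 in control myotubes (adjusted p = 0.00943). Hk2, the insulin-responsive hexokinase of muscle, had 8.15 and 7.95 at 10 mM, against 8.86 and 8.89 at 1 mM, in knockdown myotubes. In control myotubes it had 8.18 and 8.17 at 10 mM, against 9.06 and 8.88 at 1 mM. Hk2 thus fell 1.77-fold in knockdown myotubes (-0.82 ± 0.13, adjusted p = 0.00436) and 1.73-fold in control myotubes (-0.79 ± 0.13, adjusted p = 0.0055), with no overlap between the glucose levels.

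Adpgk, which phosphorylates glucose with ADP in place of ATP, fell as well. It had 5.32 and 5.41 in knockdown myotubes at 10 mM, against 6.55 and 6.59 at 1 mM, and 5.03 and 5.38 in control myotubes at 10 mM, against 6.31 and 5.94 at 1 mM. The arrays at 1 mM all lay above those at 10 mM, and the change was -1.20 ± 0.18 in knockdown myotubes (adjusted p = 0.00279) and -0.92 ± 0.18 in control myotubes (adjusted p = 0.00894). The control call held under 15 of 16 alternatives and was lost without replicate 1 of control at 1 mM (adjusted p = 0.0506). Knockdown moved none of these 3 kinases past the threshold at either glucose level, with Adpgk at 1 mM the largest difference among them, 0.44 ± 0.18 (adjusted p = 0.288).

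Phosphofructokinase, the committed step, showed the widest spread of group means among the members. The muscle subunit Pfkm had log2 values of 7.01 and 7.23 in knockdown myotubes at 10 mM and 5.62 and 5.03 in knockdown myotubes at 1 mM. Control myotubes had 7.43 and 7.57 at 10 mM and 6.66 and 6.61 at 1 mM. The 2 knockdown arrays at 1 mM were the lowest of the 8 and also the farthest apart, by 0.59, while the other 3 groups differed within pairs by much less. Glucose raised Pfkm 3.47-fold in knockdown myotubes (1.80 ± 0.20, adjusted p = 0.000979) and 1.82-fold in control myotubes (0.86 ± 0.20, adjusted p = 0.0202). The difference between those responses was 0.93 ± 0.29 with a 95% confidence interval of 0.26 to 1.61, and did not pass over all genes (adjusted p = 0.545).

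The other phosphofructokinase subunits moved less. The liver subunit Pfkl had 9.08 and 9.16 in knockdown myotubes at 10 mM, 8.88 and 8.69 in knockdown myotubes at 1 mM, 9.08 and 8.97 in control myotubes at 10 mM and 8.91 and 9.05 in control myotubes at 1 mM. It was not called in any comparison. The platelet subunit Pfkp had 9.08 and 9.06 at 10 mM against 8.47 and 8.44 at 1 mM in knockdown myotubes, and 9.24 and 8.92 at 10 mM against 8.59 and 8.48 at 1 mM in control myotubes. It rose with glucose by 0.62 ± 0.14 in knockdown myotubes (adjusted p = 0.0191) and 0.54 ± 0.14 in control myotubes (adjusted p = 0.0308). The knockdown call was lost under 4 of 16 alternatives (adjusted p up to 0.0924) and the control call under 7 of 16 (adjusted p up to 0.132). Levels of Pfkp in knockdown and control myotubes overlapped at 10 mM and differed by -0.08 ± 0.14 at 1 mM.

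Fructose 2,6-bisphosphate, the activator of phosphofructokinase, is made and removed by the Pfkfb enzymes. Pfkfb2 had 5.37 and 5.44 at 10 mM against 5.88 and 5.87 at 1 mM in knockdown myotubes, a fall of 0.47 on the log2 scale (adjusted p = 0.0427). In control myotubes it had 5.76 and 5.49 at 10 mM against 5.94 and 5.94 at 1 mM and was not called (adjusted p = 0.136). Pfkfb4 had 4.75 and 4.31 at 10 mM against 3.62 and 4.01 at 1 mM in knockdown myotubes, a rise of 0.71 ± 0.21 (adjusted p = 0.0412), and 4.23 and 3.96 against 3.82 and 3.75 in control myotubes, which was not called (adjusted p = 0.318). Both of these knockdown calls were lost under most alternatives tried, with adjusted p up to 0.176 for Pfkfb2 and 0.213 for Pfkfb4. Pfkfb3, the inducible isoform, differed by as much as 1.23 between replicates, and no comparison of it passed. Aldoc, the aldolase of brain, lay between 5.20 and 5.83 and was not called either, while the shared probe set of Aldoa, the muscle aldolase, and Aldoart1 lay between 5.91 and 6.17 on all arrays and was not called. How much of that signal belongs to Aldoa cannot be told apart on this probe set.

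**Figure D2:**
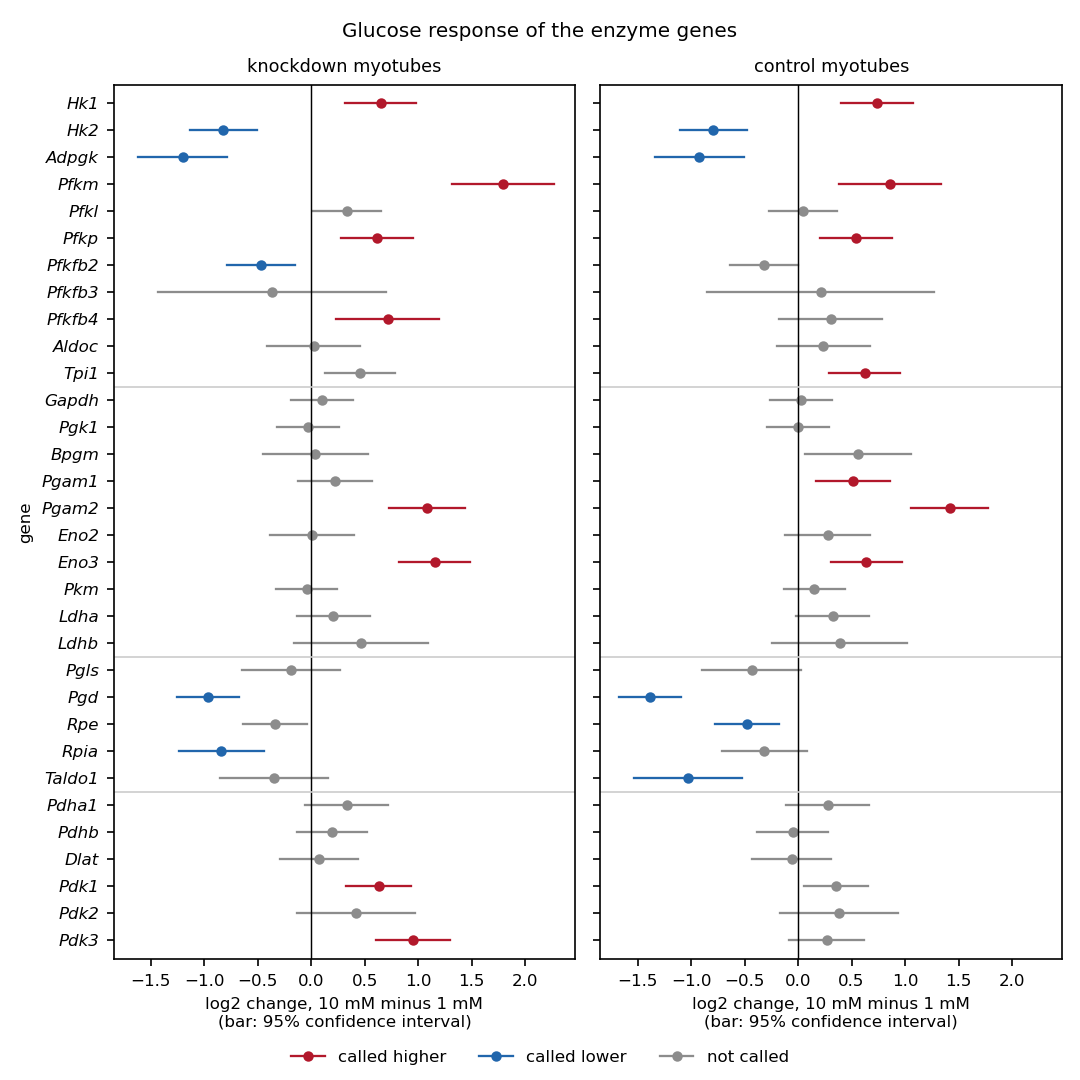
Log2 change of each measured enzyme gene at 10 mM minus 1 mM glucose in knockdown myotubes (left) and control myotubes (right), with bars for the 95% confidence interval of the limma fit over 8 arrays. Red points were called higher and blue points lower. Grey lines divide upper glycolysis, lower glycolysis, pentose phosphate and pyruvate entry from top to bottom, and Pfkm and Pgam2 are the points farthest right in the left and right panels.

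Tpi1, triose phosphate isomerase, closes the upper stage. It had 11.10 and 10.92 in knockdown myotubes at 10 mM, 10.44 and 10.67 in knockdown myotubes at 1 mM, 10.99 and 11.07 in control myotubes at 10 mM and 10.36 and 10.46 in control myotubes at 1 mM. The glucose levels did not overlap in either kind of myotubes. The rise passed in control myotubes (0.62 ± 0.14, adjusted p = 0.0172), whereas knockdown myotubes had 0.46 ± 0.14 (adjusted p = 0.0528). The difference between these responses was -0.17 ± 0.20 (adjusted p = 0.876).

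In lower glycolysis the calls were carried by mutase and enolase. The abundant enzymes Gapdh and Pgk1, which together make the first ATP, and Pkm, pyruvate kinase, stayed within narrow ranges: group means of Gapdh spanned 0.10 on the log2 scale, those of Pgk1 0.06 and those of Pkm 0.16. On the arrays Pgk1 lay between 11.37 and 11.55 and Pkm between 11.66 and 11.90. Gapdh had 12.59 and 12.48 in knockdown myotubes at 10 mM, 12.49 and 12.37 in knockdown myotubes at 1 mM, 12.52 and 12.49 in control myotubes at 10 mM and 12.45 and 12.51 in control myotubes at 1 mM. Its glucose change was 0.10 in knockdown myotubes, with a 95% confidence interval of -0.18 to 0.39, and 0.03 in control myotubes, with an interval of -0.26 to 0.32. Another Gapdh probe set, with a mean of 12.48, gave 0.07 and 0.04 in that order. A dimmer one, with a mean of 6.15, was less steady and was not called. It gave -0.10 ± 0.26 and 0.56 ± 0.26 in that order, and 0.58 ± 0.26 with knockdown at 1 mM. The lactate dehydrogenase genes Ldha and Ldhb and Bpgm, which makes 2,3-bisphosphoglycerate, were not called in any comparison either. Over the 8 arrays Ldha lay between 6.66 and 7.14, Ldhb between 3.98 and 4.97, and Bpgm between 5.85 and 6.85. Bpgm in control myotubes was nearest, at 0.56 ± 0.21 (adjusted p = 0.0939).

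Pgam2 was the dimmest member, with a mean of 3.16, and had the largest glucose change of the set in control myotubes. Its log2 values were 3.42 and 3.59 in knockdown myotubes at 10 mM and 2.52 and 2.32 in knockdown myotubes at 1 mM, beside 4.0 and 4.15 in control myotubes at 10 mM and 2.78 and 2.54 in control myotubes at 1 mM. The 4 arrays at 10 mM all lay above the 4 at 1 mM, and at each glucose level the knockdown arrays lay below the control arrays. Glucose raised Pgam2 2.12-fold in knockdown myotubes (1.08 ± 0.15, adjusted p = 0.00231) and 2.67-fold in control myotubes (1.42 ± 0.15, adjusted p = 0.000929). The knockdown differences, -0.57 ± 0.15 at 10 mM (adjusted p = 0.155) and -0.24 ± 0.15 at 1 mM (adjusted p = 0.496), did not pass. Values near 3 are close to the dim end of the table, where differences can be understated.

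Pgam1, the mutase of most tissues, had 9.51 and 9.29 in knockdown myotubes at 10 mM, 9.23 and 9.13 in knockdown myotubes at 1 mM, 9.27 and 9.30 in control myotubes at 10 mM and 8.64 and 8.90 in control myotubes at 1 mM. The lowest values were those of control myotubes at 1 mM. It was called higher with glucose in control myotubes (0.52 ± 0.15, adjusted p = 0.0399) and not in knockdown myotubes (0.23 ± 0.15, adjusted p = 0.314). The call held under 3 of 16 alternatives, and the gene's other probe set, with a mean of 6.59, gave -0.48 ± 0.20 in control myotubes (adjusted p = 0.121).

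Eno3, the beta-enolase of muscle, followed both glucose and knockdown. It had 9.67 and 9.87 in knockdown myotubes at 10 mM and 8.52 and 8.71 in knockdown myotubes at 1 mM. Control myotubes had 10.63 and 10.49 at 10 mM and 9.88 and 9.95 at 1 mM. All 4 knockdown arrays lay below all 4 control arrays, and within each kind of myotubes the arrays at 10 mM lay above those at 1 mM. Glucose raised Eno3 2.22-fold in knockdown myotubes (1.15 ± 0.14, adjusted p = 0.00134) and 1.56-fold in control myotubes (0.64 ± 0.14, adjusted p = 0.0159). The difference between the responses was 0.51 ± 0.20, with a 95% confidence interval of 0.04 to 0.98 (adjusted p = 0.59). Eno2, the neuronal enolase, had 7.93 and 7.63, 7.70 and 7.85, 7.74 and 7.42, and 7.25 and 7.36 in the same order of groups and was not called in any comparison.

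**Figure D3:**
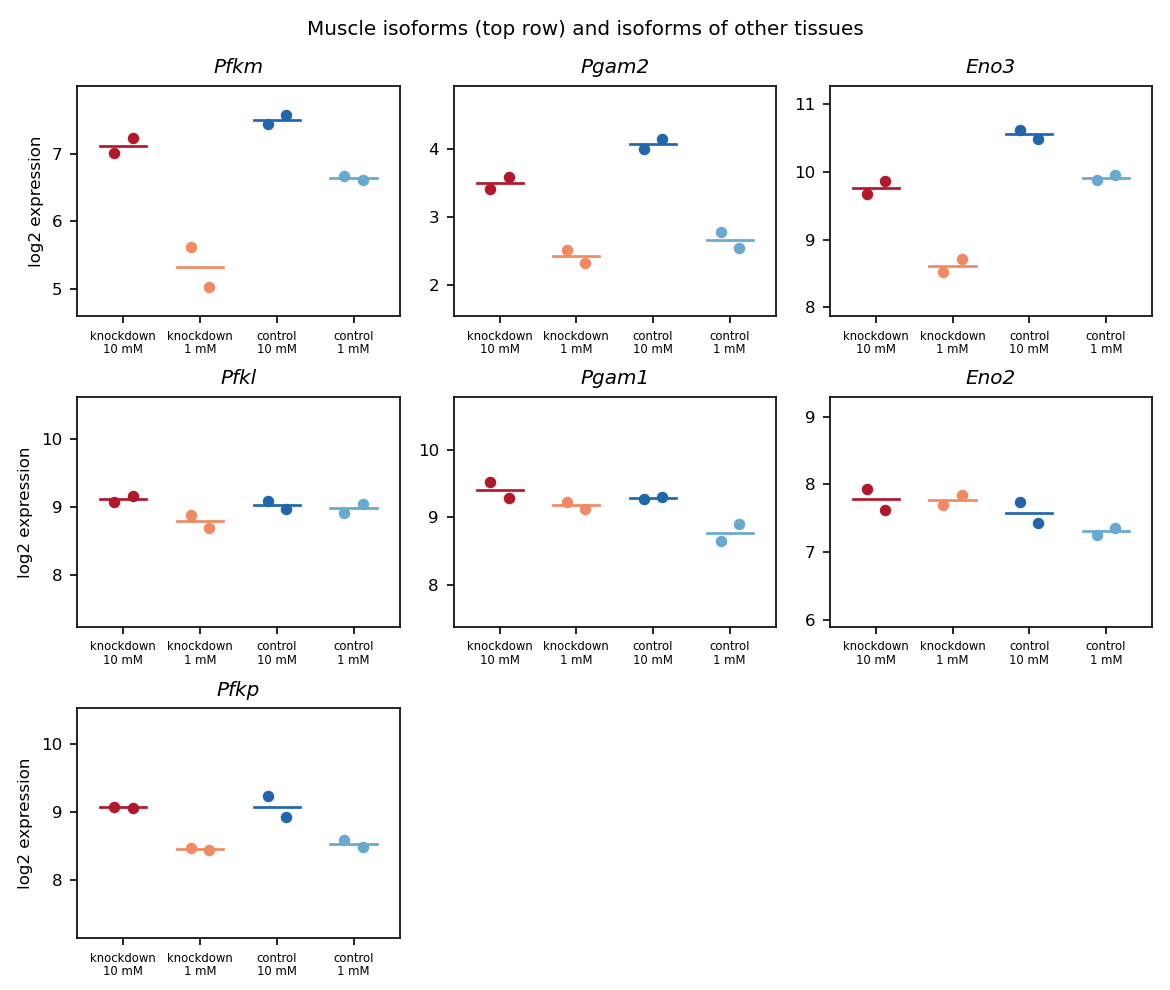
Log2 expression of the muscle isoforms Pfkm, Pgam2 and Eno3 (top row) and of isoforms of other tissues (rows below) on the 8 arrays, with points for arrays and lines for group means; each panel spans the same number of log2 units. Pfkm and Eno3 are lowest in knockdown myotubes at 1 mM, and Eno3 is lower in all 4 knockdown arrays than in the 4 control arrays.

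Within-array log2 ratios asked whether a muscle isoform changed unequally from its partner, and 3 pairs could be formed. Eno3 was not paired with Eno1, which had no probe set of its own. The Pfkm to Pfkl ratio rose with glucose by 1.46 ± 0.18 in knockdown myotubes (adjusted p = 0.00132) and 0.81 ± 0.18 in control myotubes (adjusted p = 0.0154). The Pfkm to Pfkp ratio rose by 1.18 ± 0.23 in knockdown myotubes (adjusted p = 0.00906), and in control myotubes its change of 0.32 ± 0.23 did not pass (adjusted p = 0.355), Pfkp having risen there too. The Pgam2 to Pgam1 ratio rose by 0.86 ± 0.21 in knockdown myotubes (adjusted p = 0.0213) and 0.90 ± 0.21 in control myotubes (adjusted p = 0.018). With the other Pgam1 probe set these rises came to 1.23 and 1.89. Both Pgam2 to Pgam1 calls were lost under 3 of 15 alternatives. The control call of Pfkm to Pfkl was lost under 2 of 16, and the knockdown call of Pfkm to Pfkp under 1 of 16. Each of these losses came with 1 array left out, and no ratio changed sign.

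Among the pentose phosphate genes, Pgd fell with glucose in both kinds of myotubes, Rpe, Rpia and Taldo1 in 1 kind each, and Pgls was not called. On the brightest probe set of each gene, all 5 measured members had a lower mean at 10 mM than at 1 mM in both kinds of myotubes. The median log2 change was -0.34 in knockdown myotubes and -0.48 in control myotubes. A dimmer probe set of Pgls, with a mean of 3.77, went the other way. It gave 0.29 ± 0.33 in knockdown myotubes (adjusted p = 0.577) and 0.17 ± 0.33 in control myotubes (adjusted p = 0.744). In knockdown myotubes 2 of the 5 were called lower, where 10.6% of all tested genes were, and in control myotubes 3 of the 5, where 12.1% were. Pgd, the NADPH-producing 6-phosphogluconate dehydrogenase, had 9.40 and 9.28 in knockdown myotubes at 10 mM, 10.25 and 10.37 in knockdown myotubes at 1 mM, 9.23 and 9.28 in control myotubes at 10 mM and 10.62 and 10.66 in control myotubes at 1 mM. Replicates differed by 0.12 at most, far less than the glucose levels did. Pgd fell 1.95-fold in knockdown myotubes (-0.96 ± 0.12, adjusted p = 0.0016) and 2.61-fold in control myotubes (-1.38 ± 0.12, adjusted p = 0.0005). Both calls held under all 16 alternatives tried.

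The enzymes that interconvert the pathway's sugars were called in 1 kind of myotubes each. Rpe, ribulose-phosphate epimerase, had 6.84 and 6.92 at 10 mM against 7.21 and 7.22 at 1 mM in knockdown myotubes, and 6.79 and 6.93 against 7.41 and 7.26 in control myotubes. Its fall passed in control myotubes (-0.48 ± 0.13, adjusted p = 0.0323), as it did under 7 of 16 alternatives, and not in knockdown myotubes (-0.34 ± 0.13, adjusted p = 0.0966). Rpia, the isomerase that yields ribose 5-phosphate, had 5.77 and 5.85 at 10 mM against 6.51 and 6.80 at 1 mM in knockdown myotubes, and 5.79 and 6.17 against 6.32 and 6.28 in control myotubes. It fell in knockdown myotubes (-0.84 ± 0.17, adjusted p = 0.0103) and had -0.32 ± 0.17 in control myotubes (adjusted p = 0.216). For neither gene did the responses differ past the threshold, with adjusted p of 0.889 for Rpe and 0.655 for Rpia.

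Taldo1, transaldolase, had 7.43 and 7.49 at 10 mM against 7.77 and 7.84 at 1 mM in knockdown myotubes, and 7.14 and 6.45 against 7.88 and 7.78 in control myotubes. The control arrays at 10 mM were 0.69 apart, and replicate 2 was the lowest of the 8. The fall was called in control myotubes (-1.03 ± 0.22, adjusted p = 0.0126) and not in knockdown myotubes (-0.34 ± 0.22, adjusted p = 0.294). Pgls, which hydrolyses the lactone before Pgd, lay between 4.72 and 5.40 on all arrays and was not called. Tkt, transketolase, was read only with the microRNA gene Mir3076 on 1 probe set. That probe set had 6.25 and 6.19 at 10 mM against 6.56 and 6.68 at 1 mM in knockdown myotubes (-0.40 ± 0.13, adjusted p = 0.0632) and 6.01 and 6.10 against 6.68 and 6.51 in control myotubes (-0.54 ± 0.13, adjusted p = 0.0215). G6pdx, the entry enzyme of the pathway, had no probe set of its own, as was also the case for Gpi1, Pfkfb1 and Eno1.

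**Figure D4:**
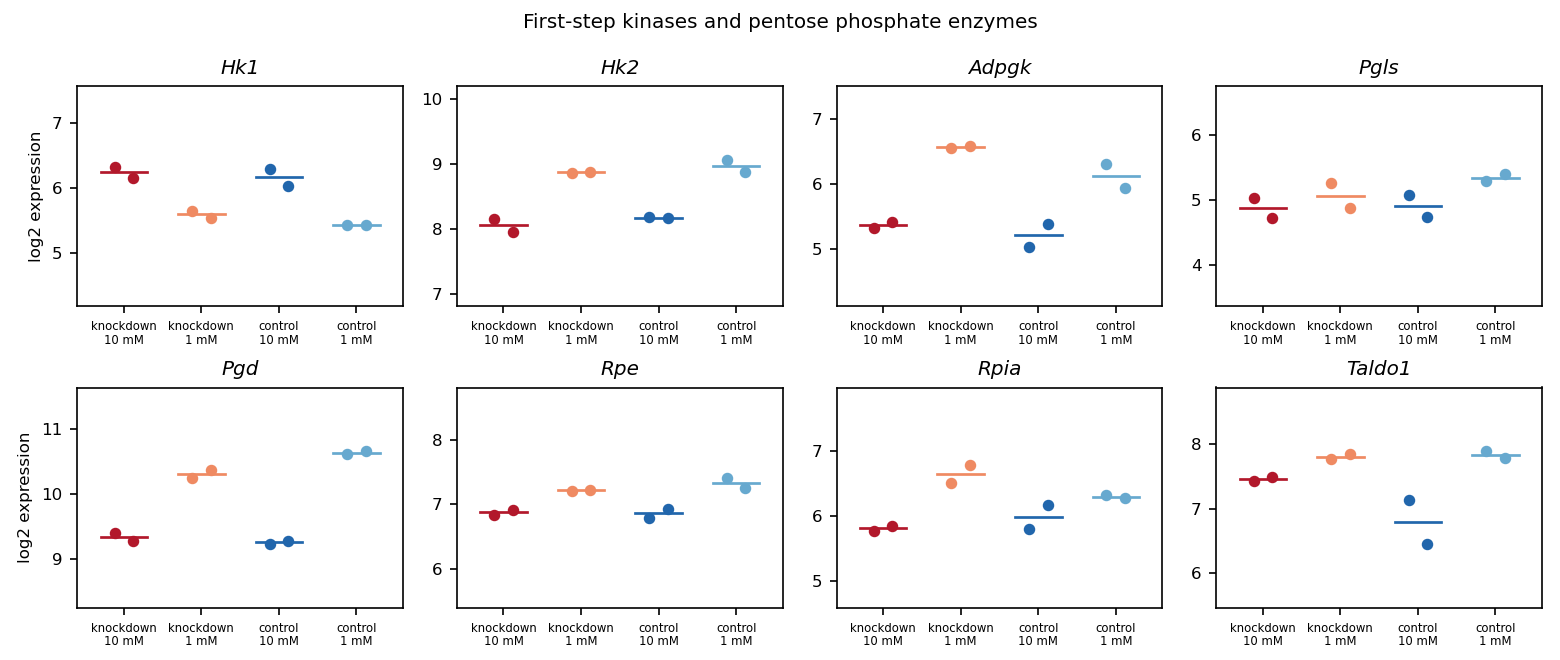
Log2 expression of the glucose-phosphorylating kinases Hk1, Hk2 and Adpgk and of the 5 measured pentose phosphate genes on the 8 arrays, with points for arrays and lines for group means. Hk1 is higher at 10 mM than at 1 mM in both kinds of myotubes, while Hk2, Adpgk and Pgd are lower at 10 mM in both.

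At pyruvate entry the catalytic subunits were not called, and the inhibitory kinases gave the only calls. Pdha1 and Pdhb, which form the E1 component of pyruvate dehydrogenase, and Dlat, its E2 component, passed in no comparison, with group means spanning 0.13 to 0.33. On the arrays Pdha1 lay between 8.33 and 8.97, Pdhb between 9.24 and 9.61, and Dlat between 7.84 and 8.21. Pdk1 had 7.94 and 7.90 at 10 mM against 7.34 and 7.25 at 1 mM in knockdown myotubes, and 8.02 and 7.83 against 7.55 and 7.59 in control myotubes. It rose in knockdown myotubes (0.63 ± 0.13, adjusted p = 0.011), and control myotubes had 0.36 ± 0.13 (adjusted p = 0.0845). Pdk3 had 6.32 and 6.49 at 10 mM against 5.44 and 5.47 at 1 mM in knockdown myotubes, and 6.17 and 6.09 against 6.02 and 5.71 in control myotubes. For both kinases the knockdown arrays at 1 mM were the lowest of the 8. Pdk3 rose 1.93-fold in knockdown myotubes (0.95 ± 0.15, adjusted p = 0.00349) and had 0.27 ± 0.15 in control myotubes (adjusted p = 0.234), a difference in response of 0.69 ± 0.21 (adjusted p = 0.541). Pdk2 lay between 6.64 and 7.55, had control replicates 0.77 apart at 10 mM, and was not called.

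Pfkm and Eno3 were the members called with knockdown. At 10 mM, 0 of 32 members were called with limma, where 1.12% of all tested genes were called. Eno3, Pgam2 and Taldo1, 3 of the 32, had an unadjusted p under 0.05 there, as had 1807 of the 13308 tested genes. At 1 mM, Pfkm and Eno3 were called lower and 0 members higher, where 0.233% of all tested genes were called higher, 1.25% lower and 1.49% either way. An unadjusted p under 0.05 was found for 7 of the 32 members at 1 mM, beside 2115 of all tested genes, and for 6 on average, beside 2617. Averaged over the glucose levels, the same genes Pfkm and Eno3 were called lower and 0 members higher, where 1.6% of all tested genes were called higher, 2.71% lower and 4.31% either way. The members' median knockdown change was -0.0020 at 10 mM and -0.036 at 1 mM, beside 0.0085 and -0.029 over all tested genes.

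Eno3 differed by -0.79 ± 0.14 at 10 mM (adjusted p = 0.0561) and -1.30 ± 0.14 at 1 mM (adjusted p = 0.00742), and was 2.06-fold lower on average over the glucose levels (-1.04 ± 0.10, adjusted p = 0.00282). The averaged call held under all 15 alternatives tried. The call at 1 mM was lost without either of the 2 control arrays at 1 mM, with adjusted p up to 0.0736. Pfkm differed by -0.38 ± 0.20 at 10 mM (adjusted p = 0.483) and -1.31 ± 0.20 at 1 mM (adjusted p = 0.0302), and by -0.85 ± 0.14 on average (adjusted p = 0.0225). The averaged call was lost under 6 of 15 alternatives, all of which left out 1 array (adjusted p up to 0.0908). The call at 1 mM was held by 7 of 16 alternatives, and leaving out any array but replicate 1 of knockdown at 1 mM ended it, with adjusted p up to 0.152. The myotube markers, of which 6 of 10 were called lower with knockdown at 1 mM, had their lowest mean on the same arrays.

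The isoform ratios with Pfkm had negative knockdown changes at both glucose levels. The Pfkm to Pfkl ratio changed by -0.47 ± 0.18 with knockdown at 10 mM (adjusted p = 0.312) and changed by -1.12 ± 0.18 at 1 mM (adjusted p = 0.0326). The Pfkm to Pfkp ratio changed by -0.37 ± 0.23 at 10 mM (adjusted p = 0.553) and -1.23 ± 0.23 at 1 mM (adjusted p = 0.0543). On average over the glucose levels both ratios fell, by 0.80 each on the log2 scale (adjusted p = 0.0177 against Pfkl and 0.0406 against Pfkp). The averaged call against Pfkl was lost under 5 of 15 alternatives (adjusted p up to 0.0766). That against Pfkp was lost under 9 of 15 (adjusted p up to 0.139). The call at 1 mM against Pfkl was lost under 10 of 16 (adjusted p up to 0.145). The Pgam2 to Pgam1 ratio changed by -0.69 ± 0.21 at 10 mM (adjusted p = 0.198), -0.65 ± 0.21 at 1 mM (adjusted p = 0.197) and -0.67 ± 0.15 on average (adjusted p = 0.0504). Both partners entered this ratio: at 1 mM, Pgam2 differed by -0.24 and Pgam1 by 0.41, neither called.

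**Figure D5:**
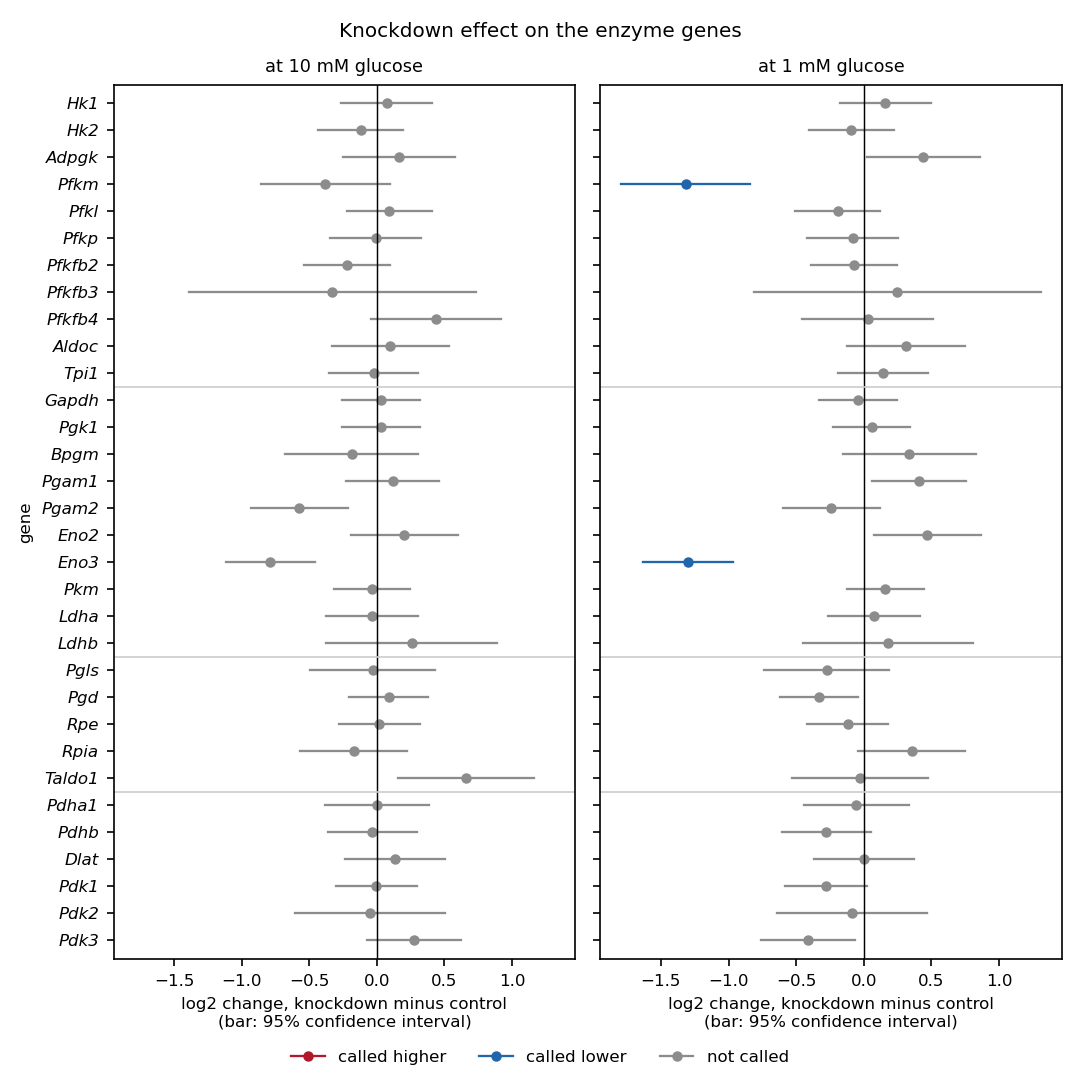
Log2 difference of each measured enzyme gene, knockdown minus control, at 10 mM (left) and 1 mM glucose (right), with bars for the 95% confidence interval of the limma fit over 8 arrays. Blue points, Pfkm and Eno3 at 1 mM, were called lower. All other points are grey, for not called.

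Whether the glucose response differed between knockdown and control myotubes was tested as an interaction. With limma, 0 of 32 members were called, as was the case for 0% of all 13308 tested genes, of which 1049 had an unadjusted p under 0.05. Among the members 4 had an unadjusted p under 0.05: Pfkm, Eno3, Pgd and Pdk3. Each of these had a positive difference, which for Pgd means a smaller fall in knockdown myotubes. With 2 arrays a group, the standard error of this difference was 0.17 to 0.64 among the members.

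Other genes of the same pathways were read from a list of 31, of which 27 were measured and 19 were bright enough to test. In knockdown myotubes 5 of 19 were called higher at 10 mM and 1 lower, where 14.5% and 10.6% of all tested genes were. In control myotubes 2 of 19 were called higher and 2 lower (10.5% each), where 13.2% and 12.1% of all tested genes were. Pdk4, the starvation-induced pyruvate dehydrogenase kinase of muscle, rose by 1.36 ± 0.20 in knockdown myotubes (adjusted p = 0.00273) and 0.78 ± 0.20 in control myotubes (adjusted p = 0.0276). Pdp1, the phosphatase that reverses the Pdk kinases, rose by 0.76 ± 0.15 in knockdown myotubes (adjusted p = 0.0103) and 1.21 ± 0.15 in control myotubes (adjusted p = 0.00167). Transcripts for both sides of this switch were thus higher at 10 mM. Tigar, a fructose 2,6-bisphosphatase known to favour the pentose phosphate pathway, fell by 1.06 on the log2 scale in knockdown myotubes (adjusted p = 0.0156) and by 0.93 in control myotubes (adjusted p = 0.0264). H6pd, the hexose-6-phosphate dehydrogenase of the endoplasmic reticulum, rose by 1.08 ± 0.18 in knockdown myotubes (adjusted p = 0.00424), and had 0.37 ± 0.18 in control myotubes (adjusted p = 0.171). Ldhd, the D-lactate dehydrogenase, had -0.42 ± 0.32 in knockdown myotubes (adjusted p = 0.394) and fell by 1.17 on the log2 scale in control myotubes (adjusted p = 0.0354). None of the 19 was called with knockdown at either glucose level, where 1.12% of all tested genes were at 10 mM and 1.49% at 1 mM. Each time 3 of the 19 had an unadjusted p under 0.05, beside 1807 and 2115 of the 13308 tested genes.

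Regulators known to act on these enzymes were read beside them. Txnip, a thioredoxin-binding protein and a standard target of the glucose-sensing factor MondoA (Mlxip), had 10.36 and 10.51 at 10 mM against 3.55 and 4.24 at 1 mM in knockdown myotubes, and 9.97 and 9.77 against 4.17 and 3.79 in control myotubes. It rose by 6.54 ± 0.24 in knockdown myotubes (adjusted p = 3.97e-05) and 5.89 ± 0.24 in control myotubes (adjusted p = 4.53e-05). Myc, an activator of glycolytic genes in many cells, had 6.32 and 6.23 at 10 mM against 9.11 and 9.08 at 1 mM in knockdown myotubes, and 5.89 and 6.06 against 9.04 and 9.04 in control myotubes. It fell 7.05-fold in knockdown myotubes (adjusted p = 5.33e-05) and 8.39-fold in control myotubes (adjusted p = 4.53e-05). The arrays low in Myc were those at 10 mM. Within each kind of myotubes, Hk2, Adpgk and Pgd were also lower there, and Hk1, Pfkm, Pfkp, Pgam2 and Eno3 were higher. Any gene called with glucose in both kinds lines up with Myc in the same or the opposite direction. Mlxip, Hif1a and Nfe2l2, the gene of Nrf2, were called in neither kind of myotubes. Mlxipl, the gene of ChREBP, was dim and fell in knockdown myotubes (-0.86 ± 0.25, adjusted p = 0.0429). What part any of these had in the enzyme changes was not tested.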

How the data were processed

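Total RNA of 8 C2C12 samples was hybridised to Affymetrix Mouse Gene ST arrays. The deposited log2 values, 41345 probe sets per array, were made by the authors with affy and RMA, per the submitters' processing notes; versions and build are not given in the sources used here. RMA equalises arrays and compresses dim signals. GEO's platform annotation gave the gene names: 23521 probe sets had 1 gene, 1814 several and 16010 none.

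Genes with a mean below the 40th percentile (log2 2.30) were left out. One mean per group was fitted over all 8 arrays with limma 3.58.1 in R 4.3.3 (4 residual and 3.36 prior degrees of freedom), p-values were two-sided, Benjamini-Hochberg adjusted over 13308 genes, and errors are SE. Isoform ratios and shared probe sets were fitted with them. The fit was checked on simulated data. Members, lists and the naming rule (members that were called, isoform partners, up to 4 other pathway genes per comparison) were chosen with earlier results of these data known. Alternatives covered filters, scaling, variance model, samples in the fit, a replicate block, probe set and leaving out each array. The number of arrays limits precision. Promoters are from RefSeq (Python 3.11).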

Additional observations from a re-analysis of the deposited data

How the results depend on the processing

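Of 37 calls of a member or isoform ratio in a comparison, 13 held under every alternative run. Over 582 recomputations, 456 kept the call, 125 lost it in the same direction and 1 reversed: Pgam1 with glucose in control myotubes, at -0.48 with its other probe set. In the knockdown comparison at 1 mM, 2 members and 1 ratio were called. Fitting only the 2 groups compared left 0 members and 0 ratios, the replicate block 1 member and 0 ratios, no filter 0 ratios, and the stricter filter and the trend and robust setting 2 ratios each. At 10 mM the stricter filter, quantile normalization and trend and robust each called 1 member, against 0. For the average over glucose levels, no filter and the replicate block left 1 of 2 ratios. For glucose in control myotubes the stricter filter left 1 of 2 ratios. That filter, at the 60th percentile, dropped Pgam2, whose mean lay at the 50.6th, so the Pgam2 to Pgam1 ratio could not be formed. The replicate block called 11 members for glucose in each kind of myotubes, and 0 at 10 mM and 0 for the interaction.

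Leaving out 1 array gave 7 to 12 members and 1 to 3 ratios for glucose in knockdown myotubes, 4 to 11 members and 0 to 2 ratios for glucose in control myotubes, 0 to 2 members and 0 to 1 ratios for knockdown at 1 mM, and 1 to 2 members and 0 to 2 ratios for the average. The count of 7 came without replicate 1 of knockdown at 10 mM. In control myotubes the count was 4 without replicate 1 at 1 mM, 6 without replicate 2 at 1 mM and 7 without replicate 1 at 10 mM. Fewer samples leave fewer degrees of freedom, and other causes were not tested. Same-numbered arrays shared only a number: over 6 pairs of groups, their deviations from the group means correlated at -0.038 to 0.108. Low signal limits Pgam2, whose group means at 1 mM lay under 3.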
